A study of Mus musculus with 12 samples.

Results

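Tight junctions seal the space between neighbouring epithelial cells, and the genes described here encode 10 of their components: the claudins Cldn1, Cldn2, Cldn3, Cldn4, Cldn6, Cldn7 and Cldn23, occludin (Ocln), the scaffold ZO-1 (Tjp1) and the adhesion molecule JAM-A (F11r). They were taken by gene name from a count table of 57186 genes, and all 10 were found, each as a single row. Cldn2, Tjp1 and F11r were abundant in pancreatic tumor cells lacking Dkk3, Ocln and Cldn3 were low, and Cldn1, Cldn4, Cldn6, Cldn7 and Cldn23 lay near the limit of counting. Of the 8 genes that could be tested, Cldn2, Cldn7 and Ocln differed between the tumor lines at an adjusted p under 0.05 in edgeR's quasi-likelihood test, as did 33.7% of all 16277 tested genes. With recombinant DKK3, 0 of the 8 and 1 of the 16277 (0.00614%) passed the same test.

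Claudins are membrane proteins that meet those of the next cell and set which ions pass between cells. Claudin-2 forms a channel for small cations and water and is typical of leaky epithelia, whereas claudin-1, claudin-3 and claudin-4 are known mainly as sealing claudins. Occludin and JAM-A are further membrane proteins of the junction, and ZO-1 ties claudins, occludin and JAM-A to the actin cytoskeleton. Pancreatic ducts carry tight junctions, and repressors of the Snail and Zeb families are known to lower claudin and occludin expression when epithelial cells take on mesenchymal features.

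The cells were DDKC lines, grown from pancreatic tumors of mice with homozygous Dkk3 knockout (Dkk3-/-) and Ptf1a Cre, which acts in the pancreas. Each of the 3 lines, DDKC_9750, DDKC_9790 and DDKC_9804, came from a DDKC mouse, and the age of the mice is not given in the labels. Each line was either untreated or treated with rDKK3, a recombinant soluble form of DKK3 that models DKK3 supplied by the stroma. The concentration and duration of rDKK3 for these RNA samples are not given in the sources used here, and untreated cells carry the same knockout as treated ones. Bulk RNA was sequenced in 2 libraries for each line and condition, 12 in all, so a change in RNA per cell cannot be told apart from a change in the share of cells that express a gene.

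The 6 untreated libraries held 7520741 to 24541083 counts each and the 6 rDKK3 libraries 3822987 to 11567095. In DDKC_9750 and DDKC_9804 both rDKK3 libraries were shallower than both untreated ones. Levels are given as CPM, each count divided by its library's TMM-scaled total, and 3 counts, taken as the floor of detection, correspond to 0.127 to 0.752 CPM. This floor covers counting error only. Dkk3 had 0 counts in 11 libraries and 1 count in the other. All 7 markers of pancreatic ductal epithelium were above the floor in at least 1 library, although Epcam did not exceed 2.26 CPM, and their summed level, averaged over the 2 libraries of a line and condition, was 5311 to 9711 CPM untreated and 4069 to 8022 CPM with rDKK3. Of markers of other cells, 2 of 7 acinar, 5 of 7 fibroblast, 2 of 6 leukocyte, 2 of 5 endothelial and 3 of 4 mesothelial genes were above the floor in at least 1 library, while Ptf1a, Dcn, Lum, Ptprc and Cdh5 were at or under it. In single libraries Cela1 (acinar) reached 12.5 CPM, Col1a1 (fibroblast) 11.6, Cd68 (leukocyte) 39.8 and Kdr (endothelial) 20.8, each above the highest value of Epcam. The mesothelial sum, averaged over the 2 libraries of a line and condition, was 418 to 839 CPM untreated and 341 to 983 CPM with rDKK3, and was mostly Msln.

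The 250 bases before the start of each gene were read from GRCm39 and searched on both strands for CAGGTG, the E-box bound by Snail and Zeb factors (CACCTG on the other strand), and for AACCNGTT, the Grainyhead-like motif (AACNGGTT on the other strand). The E-box was present before 3 of the 10 genes, Cldn4, Cldn23 and F11r, and before 3721 of 21652 protein-coding genes (17.2%). The Grainyhead-like motif was present before 0 of the 10 genes and before 379 of 21652 (1.75%). Shown are Cldn2 and Cldn3, whose levels moved most with rDKK3 among the genes above the floor in every library, and Cldn4 and F11r, which carry the E-box, with the E-box in capitals. The windows are Cldn2 at chrX:138701327-138701576 (plus strand), Cldn3 at chr5:135014818-135015067 (plus strand), Cldn4 at chr5:134975789-134976038 (minus strand) and F11r at chr1:171264853-171265102 (plus strand) of GRCm39.
Cldn2: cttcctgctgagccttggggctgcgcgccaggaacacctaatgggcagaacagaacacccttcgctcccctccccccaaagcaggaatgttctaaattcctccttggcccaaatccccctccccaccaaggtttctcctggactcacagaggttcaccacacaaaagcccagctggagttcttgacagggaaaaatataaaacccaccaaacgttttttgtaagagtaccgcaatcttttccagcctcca
Cldn3: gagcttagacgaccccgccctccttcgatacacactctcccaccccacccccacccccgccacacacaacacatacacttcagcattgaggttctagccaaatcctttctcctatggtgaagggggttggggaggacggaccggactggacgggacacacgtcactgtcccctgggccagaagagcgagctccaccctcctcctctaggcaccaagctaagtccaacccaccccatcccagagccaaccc
Cldn4: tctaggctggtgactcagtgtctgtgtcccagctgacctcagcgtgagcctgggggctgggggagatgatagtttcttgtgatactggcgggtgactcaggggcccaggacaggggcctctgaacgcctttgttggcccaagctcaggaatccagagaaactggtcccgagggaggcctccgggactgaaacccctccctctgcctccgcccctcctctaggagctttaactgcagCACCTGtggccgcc
F11r: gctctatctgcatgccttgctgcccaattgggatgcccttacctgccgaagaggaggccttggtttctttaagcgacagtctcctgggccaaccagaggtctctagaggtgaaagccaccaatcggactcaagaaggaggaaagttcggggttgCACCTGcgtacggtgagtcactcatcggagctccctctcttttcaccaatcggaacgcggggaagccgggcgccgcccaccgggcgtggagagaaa
The E-box of Cldn4 begins 14 bases before the gene start and that of F11r 96 bases before it. No E-box in these letters was found in the Cldn2 or Cldn3 window.

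Cldn2 (ENSMUSG00000047230.7, chrX:138701577-138712135 of GRCm39) was the most abundant of the 10 genes. Per kilobase of exon it had 224.6 ± 132 CPM in untreated cells (SD, n = 3 lines), against 56.4 ± 10.2 for F11r, 37.9 ± 6.45 for Tjp1, 4.18 ± 2.81 for Cldn3 and 0.845 ± 0.738 for Ocln on the same scale. Cldn7 had 0.72 ± 0.771 CPM per kilobase and Cldn23 0.504 ± 0.398, and the means of Cldn4, Cldn6 and Cldn1 were 0.2, 0.176 and 0.0361. Averaged over conditions, Cldn2 was above F11r and F11r above Tjp1 in each of the 3 lines, whereas Cldn3 (1.71) and Ocln (1.78) were close in DDKC_9750. The genes from Ocln downwards differed from their neighbours in this order by no more than their spread over lines.

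The rDKK3 comparison asked whether DKK3 from outside the cell alters junction genes in cells that make none. In DDKC_9750, Cldn2 had 1194 and 1121 CPM in the untreated and 1367 and 1275 CPM in the rDKK3 libraries. In DDKC_9790 it had 352 and 317 CPM untreated and 316 and 303 CPM with rDKK3. In DDKC_9804 it had 639 and 629 CPM untreated and 200.3 and 199.5 CPM with rDKK3. With TMM scaling the libraries of the conditions did not overlap in any line, but Cldn2 was higher with rDKK3 in DDKC_9750 and lower in DDKC_9790 and DDKC_9804. Library totals without TMM scaling moved the log2 ratio of DDKC_9790 up by 0.06, and the libraries of that line then overlapped. The log2 ratio of rDKK3 to untreated was 0.19 in DDKC_9750 (95% counting interval 0.16 to 0.22), -0.09 in DDKC_9790 (-0.14 to -0.04) and -1.66 in DDKC_9804 (-1.72 to -1.60). The last of these is a 3.16-fold lower level, and 2.47% of tested genes had a lower value in that line. Across lines the mean was 709 ± 417 CPM untreated and 610 ± 618 CPM with rDKK3 (SD, n = 3), and the fitted log2 fold change was -0.50 ± 0.38 (SE; edgeR adjusted p = 0.737). Counting intervals, which are exact, cover counting error only.

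**Figure D1:**
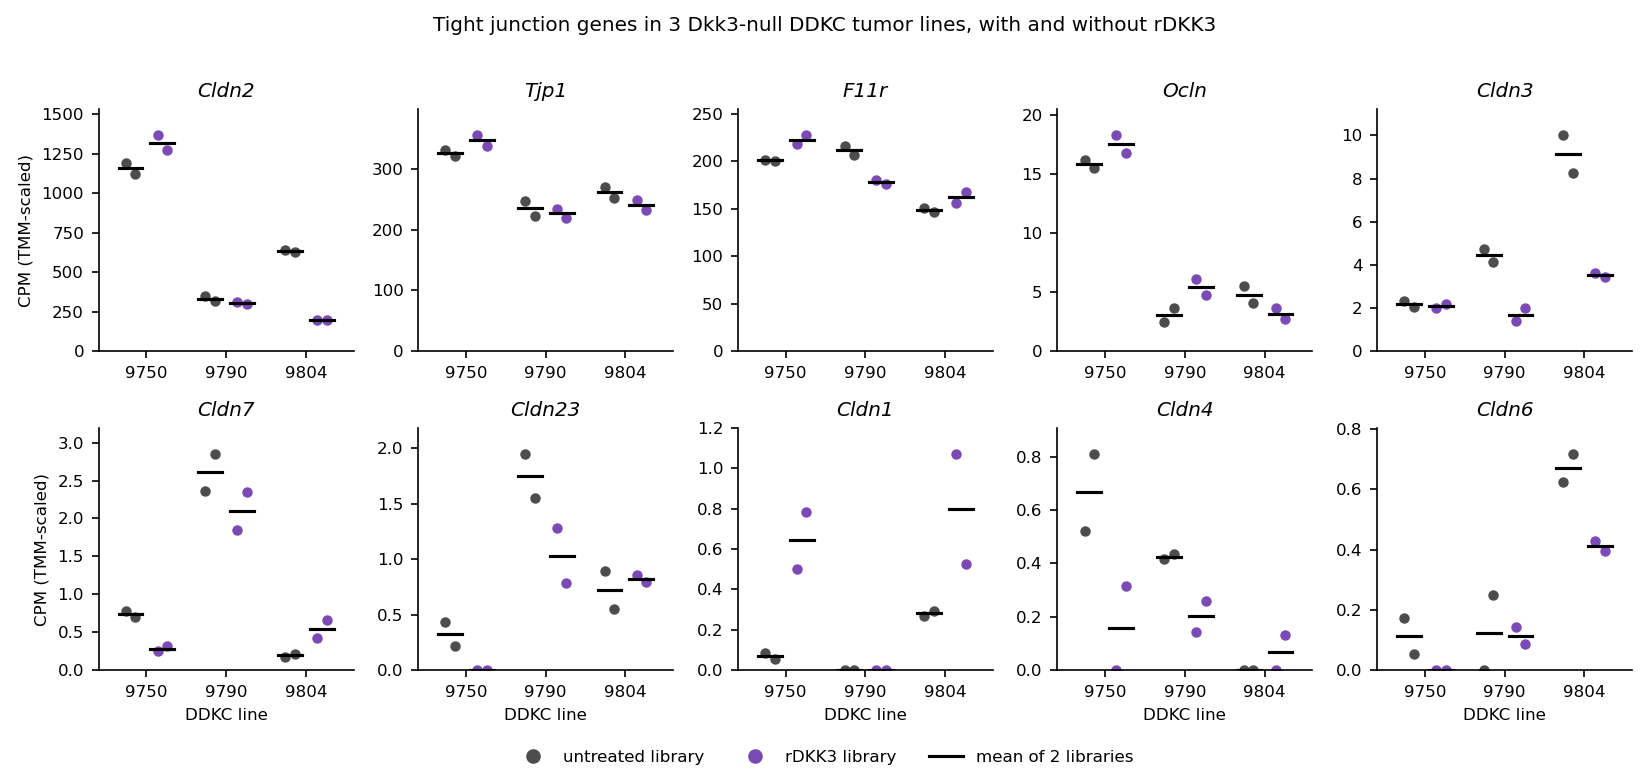
CPM of each of the 10 genes (vertical axes, each from 0) in the 12 libraries by DDKC line (horizontal axis), with untreated libraries in grey, rDKK3 libraries in purple and a bar at the mean of the 2 libraries. In DDKC_9804, Cldn2 is at 639 and 629 CPM untreated and at 200.3 and 199.5 CPM with rDKK3, and Ocln is highest in DDKC_9750.

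Cldn3 (ENSMUSG00000070473.5, chr5:135015068-135016326), a sealing claudin, was the only one of the 8 tested genes with a lower level in all 3 lines, where 18.3% of tested genes did the same, and 0 of the 8 were higher in all 3 lines, against 13.7% of tested genes. It had 2.35 and 2.05 CPM untreated and 2.01 and 2.20 CPM with rDKK3 in DDKC_9750, where the libraries overlapped. In DDKC_9790 it had 4.73 and 4.15 CPM untreated and 1.42 and 2.00 CPM with rDKK3, and in DDKC_9804 10.0 and 8.27 CPM untreated and 3.65 and 3.43 CPM with rDKK3. In both of these lines every rDKK3 library was below every untreated one. The log2 ratios were -0.03 (-0.80 to 0.69), -1.28 (-1.90 to -0.70) and -1.33 (-1.83 to -0.87) in DDKC_9750, DDKC_9790 and DDKC_9804. The fitted log2 fold change was -0.92 ± 0.35 (SE), with an unadjusted p of 0.0412 and an edgeR adjusted p of 0.603. With the 12 libraries treated as separate samples the adjusted p was 0.00932, a fit in which 16.1% of all genes were called.

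Ocln (ENSMUSG00000021638.13, chr13:100633015-100689226), the tetraspan occludin, moved in different directions. It had 16.2 and 15.6 CPM untreated and 18.3 and 16.8 CPM with rDKK3 in DDKC_9750. In DDKC_9790 it had 2.51 and 3.72 CPM untreated and 6.11 and 4.77 CPM with rDKK3. In DDKC_9804 it had 5.54 and 4.09 CPM untreated and 3.65 and 2.77 CPM with rDKK3. The rDKK3 libraries were higher in the former lines and lower in DDKC_9804, with log2 ratios of 0.14 (-0.12 to 0.39), 0.66 (0.22 to 1.11) and -0.55 (-1.10 to -0.04). The fitted log2 fold change was 0.10 ± 0.28 (SE; edgeR adjusted p = 0.933).

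Tjp1 (ENSMUSG00000030516.15, chr7:64945913-65177529), which encodes the scaffold ZO-1, varied little with rDKK3. Its libraries ranged from 219 to 354 CPM over all 12, with means of 274 ± 46.6 CPM untreated and 271 ± 65.4 CPM with rDKK3 (SD, n = 3). The log2 ratios were 0.09 in DDKC_9750, -0.04 in DDKC_9790 and -0.11 in DDKC_9804, and the fitted log2 fold change was -0.02 ± 0.11 (SE; edgeR adjusted p = 0.971). The annotated genes Gm44792 and Gm44794 overlap the span of Tjp1 on its strand, and whether they affect its counts was not tested.

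F11r (ENSMUSG00000038235.5, chr1:171265103-171292171), which encodes JAM-A, had 187 ± 33.8 CPM untreated and 188 ± 31.4 CPM with rDKK3 (SD, n = 3). Its libraries ranged from 146 to 228 CPM. It was higher with rDKK3 in DDKC_9750 (log2 ratio 0.16, 0.09 to 0.23) and DDKC_9804 (0.15, 0.07 to 0.22) and lower in DDKC_9790 (-0.24, -0.30 to -0.17), with no overlap of libraries in any line. The fitted log2 fold change was 0.02 ± 0.13 (SE; edgeR adjusted p = 0.970).

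The remaining claudins rest on few counts. Cldn7 (ENSMUSG00000018569.13, chr11:69855605-69858711), a claudin that binds EpCAM, had 22 counts untreated and 3 with rDKK3 in DDKC_9750, 63 and 40 in DDKC_9790, and 7 and 7 in DDKC_9804, whose rDKK3 libraries were shallower. Its log2 ratios were -1.34 (-3.72 to 0.40), -0.33 (-0.94 to 0.27) and 1.51 (-0.23 to 3.25), and every one of these intervals included 0. Cldn23 (ENSMUSG00000055976.7, chr8:36291866-36293713) had 9 and 0 counts in DDKC_9750, 39 and 18 in DDKC_9790 and 23 and 10 in DDKC_9804. Scaled to depth, its level in DDKC_9804 was 0.721 CPM untreated and 0.825 CPM with rDKK3, with overlapping libraries. Its log2 ratios were -0.79 (-1.68 to 0.05) in DDKC_9790 and 0.31 (-0.93 to 1.44) in DDKC_9804, and both intervals included 0. The fitted log2 fold changes were -0.11 ± 0.58 for Cldn7 and -0.62 ± 0.65 for Cldn23 (SE; edgeR adjusted p = 0.967 and 0.811).

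Cldn1 (ENSMUSG00000022512.4, chr16:26175392-26190591), a sealing claudin, had 2 counts untreated and 7 with rDKK3 in DDKC_9750, 10 and 9 in DDKC_9804 and 0 in all libraries of DDKC_9790. The log2 ratios were 3.34 (0.95 to 6.65) in DDKC_9750 and 1.36 (-0.12 to 2.81) in DDKC_9804, and the fitted log2 fold change was 2.02 ± 0.82 (SE; edgeR adjusted p = 0.642). It was 1.35 without DDKC_9750 and 3.10 without DDKC_9804. Cldn1 passed the filter on low counts only through its rDKK3 samples of DDKC_9750 and DDKC_9804, which were shallow, so its fold change and p are given as a description. Cldn4 (ENSMUSG00000047501.4, chr5:134973973-134975788), a sealing claudin, had 21 and 2 counts in DDKC_9750, 10 and 4 in DDKC_9790 and 0 and 1 in DDKC_9804. Cldn6 (ENSMUSG00000023906.4, chr17:23898223-23901420), a claudin of embryonic epithelia, had 3 and 0, 4 and 2, and 24 and 5 counts in the same order. Cldn4 and Cldn6 did not pass the filter on low counts and were not tested.

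**Figure D2:**
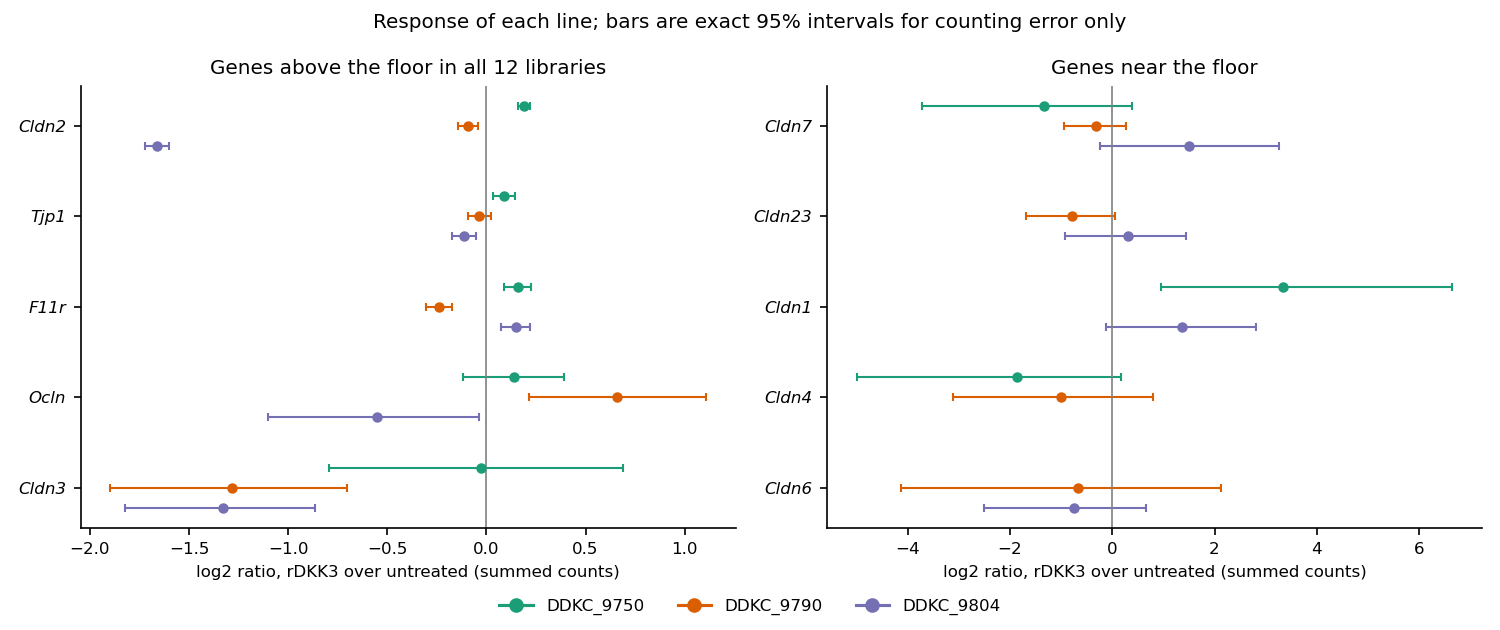
Log2 ratio of rDKK3 to untreated (horizontal axis) for each gene and line, from the summed counts of 2 libraries, with exact 95% intervals for counting error; ratios with 0 counts on a side are not drawn. The Cldn2 interval of DDKC_9804 (-1.72 to -1.60) lies apart from those of the other lines, and the low genes at the right have wide intervals.

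Over all 10 genes, both rDKK3 libraries were above both untreated ones for 5 genes in DDKC_9750, 1 in DDKC_9790 and 3 in DDKC_9804, and below them for 4, 6 and 5 genes. Among all tested genes the shares were 31.5%, 29.7% and 30.3% above and 34.3%, 29% and 39.1% below. The counts of the 10 include Cldn4 and Cldn6, which were not tested. The 4 genes below in DDKC_9750 were Cldn4, Cldn6, Cldn7 and Cldn23, and Cldn1 was among those above in DDKC_9750 and DDKC_9804, all near the limit of counting. With TMM scaling, the libraries of 5 of the 8 tested genes, Cldn2, Cldn7, Ocln, Tjp1 and F11r, were all above in at least 1 line and all below in at least 1 other, as for 36.5% of all tested genes. For Tjp1 this did not hold with unscaled totals. Of the 8 tested genes 0 were called for rDKK3 by edgeR and 1 had an unadjusted p under 0.05, whereas 1 of all 16277 tested genes was called (0.00614%) and 8.19% had an unadjusted p under 0.05. DESeq2 called 0 of the 5 to which it gave an adjusted p (none was given for Cldn1, Cldn7 and Cldn23), and 98 of the 16277 (0.602%). The gene of the 8 with an unadjusted p under 0.05 in edgeR, Cldn3, was lower, as were 5.07% of all tested genes at this unadjusted p, and 3.11% were higher. With 3 pairs of samples the smallest two-sided p of an exact permutation test is 0.25.

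The line comparison asked whether the 3 lines differ in these genes, taking the untreated and the rDKK3 sample of each line together. Of the 8 tested genes 3 were called, Cldn2, Cldn7 and Ocln (edgeR adjusted p = 0.0355, 0.0417 and 0.0127), where 33.7% of all tested genes were called. By pairs of lines, 3 of the 8 genes were called between DDKC_9750 and DDKC_9790 (25.5% of all tested genes), 1 between DDKC_9750 and DDKC_9804 (17.7%) and 1 between DDKC_9790 and DDKC_9804 (20.6%). Ocln was higher in DDKC_9750 than in DDKC_9790 by 1.95 ± 0.34 and than in DDKC_9804 by 2.08 ± 0.34 on the log2 scale (SE; edgeR adjusted p = 0.0163 and 0.0164). Cldn2 was higher in DDKC_9750 than in DDKC_9790 by 1.98 ± 0.46 (adjusted p = 0.0333 in edgeR), and its difference of 1.72 ± 0.47 from DDKC_9804 had an adjusted p of 0.0616. DDKC_9750 was highest in both conditions, but the order of the others changed. Untreated, DDKC_9804 was above DDKC_9790 (634 against 335 CPM), and with rDKK3 it was below (200 against 309 CPM). Cldn7 was higher in DDKC_9790 than in DDKC_9804 by 2.84 ± 0.70 (edgeR adjusted p = 0.0432). Tjp1 was higher in DDKC_9750 than in DDKC_9790 by 0.56 ± 0.14 (edgeR adjusted p = 0.0399), while over the 3 lines together its adjusted p was 0.0532. For Cldn1, Cldn3, Cldn23 and F11r the test over the 3 lines gave 0.0739, 0.0821, 0.0957 and 0.149 after edgeR's adjustment.

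Of the claudin genes listed for this report, 25 were found in the table, of which 12 exceeded the floor in at least 1 library and 13 did not. Claudin genes outside the lists were not looked up. Cldn2 held 82.6% to 93.1% of the summed CPM per kilobase of these 25 genes in each line and condition. Cldn12 held 1.49% to 10.3%, and Cldn18, a claudin of stomach and lung, held 13.2% and 8.41% in untreated and rDKK3 DDKC_9750 and at most 0.128% in the other lines. Cldn18 had 255 and 175 CPM in DDKC_9750, 0.263 and 0.343 CPM in DDKC_9790 and 0.256 and 0.437 CPM in DDKC_9804, untreated and with rDKK3, and its line difference had an edgeR adjusted p of 0.000464. Outside DDKC_9750 it had 6 to 11 counts per sample, so it passed the filter on low counts only through that line. This p is therefore given as a description. Cldn12 stayed between 48.7 and 79.8 CPM in these 6 samples. Of 21 other claudin and claudin-like genes listed, 20 were in the table, 12 had any count and 3 were tested, with 0 called for rDKK3. Between lines 1 was called (33.3%, against 33.7% of all tested genes), Cldn18, which reached the test only through DDKC_9750.

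Of the other membrane proteins and receptors of the tight junction, 9 of 11 were tested, 0 were called for rDKK3 and 6 between lines, where 33.7% of all tested genes were called. Their median fitted log2 fold change was -0.58, against -0.01 over all tested genes, and 5 of the 9 were lower in all 3 lines, as were 18.3% of all tested genes. The median is the value of Marveld3, which differed in direction between lines and had 4 counts in the rDKK3 sample of DDKC_9804. In that sample Ildr2, Crb3 and Esam had 4, 6 and 8 counts. Of the more abundant genes, Lsr was lower in all 3 lines (-0.41 ± 0.11), whereas Cxadr and Jam2 had 0.08 ± 0.13 and -0.05 ± 0.24. Ildr2, an angulin of junctions where 3 cells meet, had 11.5 and 7.16 CPM in DDKC_9750, 3.83 and 1.29 CPM in DDKC_9790 and 1.54 and 0.346 CPM in DDKC_9804 (log2 fold change -1.24 ± 0.34; edgeR adjusted p = 0.603). Esam, an adhesion molecule of the JAM group, had a log2 fold change of -1.33 ± 0.35 with the same adjusted p in edgeR. Crb3, a polarity protein of the Crumbs complex, had 20.6 and 13.1 CPM in DDKC_9750, 6.14 and 5.60 CPM in DDKC_9790 and 3.33 and 0.561 CPM in DDKC_9804 (log2 fold change -0.91 ± 0.45; edgeR adjusted p = 0.644). Lsr, the angulin that recruits tricellulin, had 199 and 163 CPM, 99.2 and 72.4 CPM, and 25.7 and 18.0 CPM untreated and with rDKK3 in the order of the lines, and it was named after its values were seen. Jam2 was the widest of these between lines, at 2.09 and 3.08 CPM in DDKC_9750 and 191 and 127 CPM in DDKC_9804 (line edgeR adjusted p = 0.00131).

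All 26 scaffold, polarity and linker genes were tested, with 0 called for rDKK3 and 12 between lines (46.2%, against 33.7% of all tested genes), and a median fitted log2 fold change of 0.05. With rDKK3, 5 of the 26 were higher in all 3 lines and 4 lower, as were 13.7% and 18.3% of all tested genes. Tjp3, which encodes ZO-3, had 62.9 and 219.8 CPM in DDKC_9750, 12.5 and 9.71 CPM in DDKC_9790 and 2.73 and 0.742 CPM in DDKC_9804 (line edgeR adjusted p = 0.0104). Prkcz, an atypical protein kinase C of the polarity complex, had 11.2 and 15.4 CPM in DDKC_9750 and at most 1.54 CPM in the other lines. Amotl2, an angiomotin, had 147 and 180 CPM, 107 and 130 CPM, and 99.2 and 145 CPM in the order of the lines, and its log2 fold change was 0.37 ± 0.12 (edgeR adjusted p = 0.603). The scaffold Magi2 and the polarity protein Pard6g had lower levels with rDKK3 in all 3 lines, with log2 fold changes of -0.65 ± 0.37 and -0.47 ± 0.23 (edgeR adjusted p = 0.679 and 0.644). So did Patj, a polarity scaffold chosen after its values were seen, at -0.29 ± 0.11 (unadjusted p = 0.0435; edgeR adjusted p = 0.603).

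**Figure D3:**
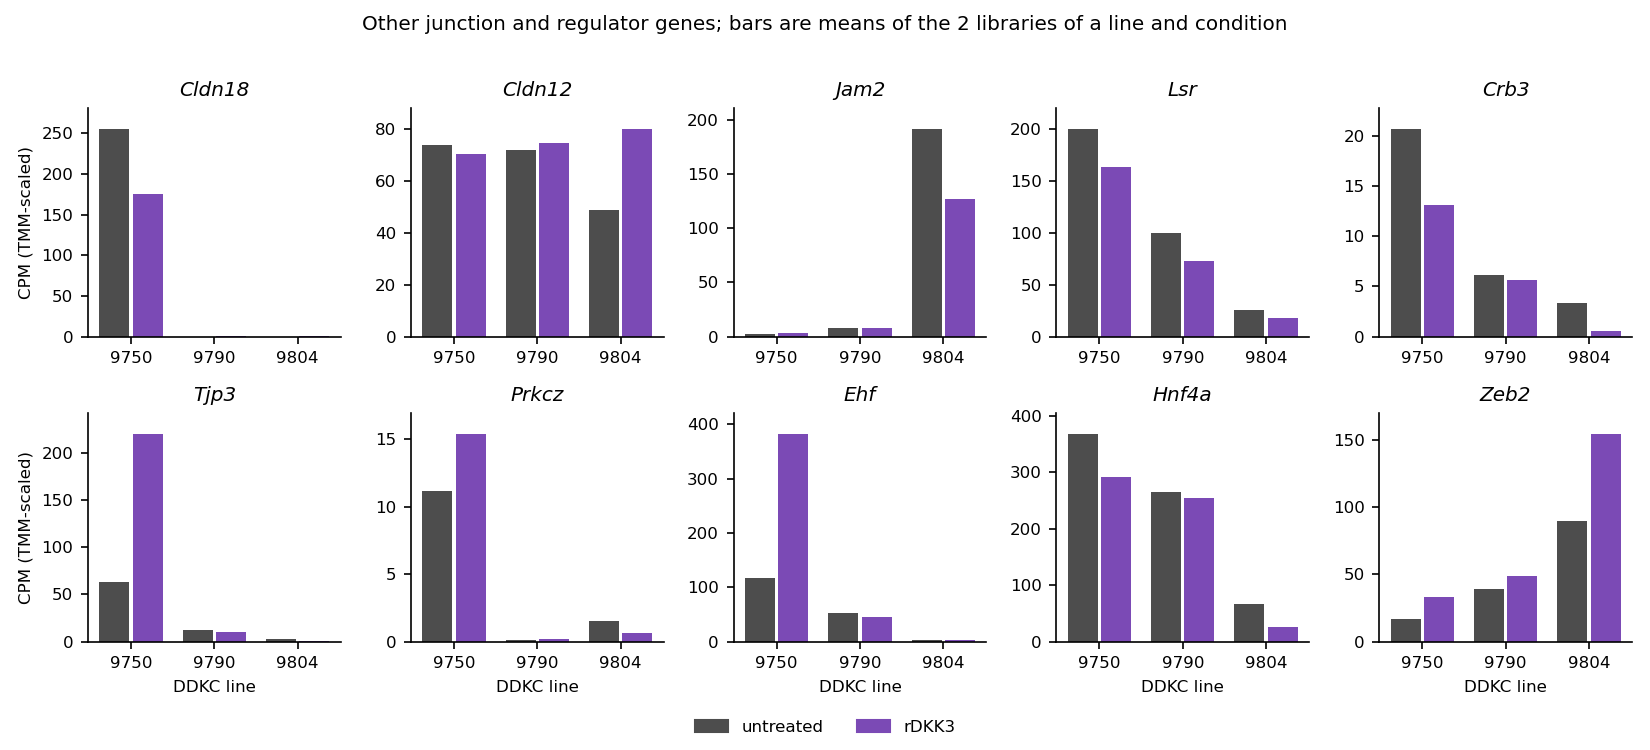
CPM (vertical axes, from 0) of 10 further junction and regulator genes by DDKC line (horizontal axis), each bar the mean of the 2 libraries, untreated in grey and rDKK3 in purple; Lsr was added after its values were seen. Cldn18 is high in DDKC_9750 only among the 3 lines (255 and 175 CPM) and Jam2 in DDKC_9804 (191 and 127 CPM).

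Of 7 tested claudin-associated genes 0 were called for rDKK3 and 6 between lines (85.7%, against 33.7% of all tested genes). The tetraspanin Cd9 had 538 and 334 CPM, 1389 and 1020 CPM, and 1175 and 634 CPM untreated and with rDKK3 in the order of the lines, a log2 fold change of -0.67 ± 0.14 (unadjusted p = 0.00398; edgeR adjusted p = 0.603). Of 15 tested adherens junction and desmosome genes 0 were called for rDKK3 and 12 between lines (80%, against the same 33.7%). Nectin3, an adhesion molecule of adherens junctions, had a log2 fold change of -0.71 ± 0.15 and Nectin1 one of 0.45 ± 0.14, both with an edgeR adjusted p of 0.603.

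Of 9 tested epithelial regulators 0 were called for rDKK3 and 7 between lines (77.8%, against 33.7% of all tested genes), and Grhl1, Grhl2, Grhl3, Ovol1, Ovol2, Esrp1 and Tfap2c were too low to test. Hnf4a, a factor of endodermal epithelia, had 368 and 292 CPM in DDKC_9750, 265 and 255 CPM in DDKC_9790 and 66.8 and 25.8 CPM in DDKC_9804 (line edgeR adjusted p = 0.00911). Ehf, an epithelial ETS factor, had 117 and 382 CPM in DDKC_9750, 52.6 and 45.4 CPM in DDKC_9790 and 2.67 and 2.61 CPM in DDKC_9804 (log2 fold change 0.58 ± 0.41; edgeR adjusted p = 0.725). Of 9 repressors and mesenchymal genes, all tested, 0 were called for rDKK3 and 7 between lines (again 77.8%). At an unadjusted p under 0.05 in edgeR, 2 were higher and 2 lower with rDKK3, as were 3.11% and 5.07% of all tested genes. Zeb2, a repressor of epithelial genes, had 16.5 and 32.8 CPM in DDKC_9750, 39.2 and 49.0 CPM in DDKC_9790 and 89.8 and 154 CPM in DDKC_9804, a log2 fold change of 0.69 ± 0.16 (unadjusted p = 0.00662; edgeR adjusted p = 0.603). In the other direction, Vim, the mesenchymal intermediate filament vimentin, had 2614 and 1612 CPM, 4838 and 3414 CPM, and 3422 and 2757 CPM in the order of the lines, a log2 fold change of -0.50 ± 0.15 (unadjusted p = 0.0163; edgeR adjusted p = 0.603). Twist1, outside the naming rule and chosen after its values were seen, had -0.32 ± 0.12 (unadjusted p = 0.0369) and Twist2 0.45 ± 0.17 (unadjusted p = 0.0369), both at an edgeR adjusted p of 0.603. Snai2 was higher with rDKK3 in all 3 lines (log2 fold change 0.80 ± 0.35; edgeR adjusted p = 0.642). Snai1 and Zeb1, outside the naming rule, moved in different directions between lines (-0.17 ± 0.25 and 0.14 ± 0.12; edgeR adjusted p = 0.869 and 0.78). Whether these levels have a part in those of the claudins was not tested.

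**Figure D4:**
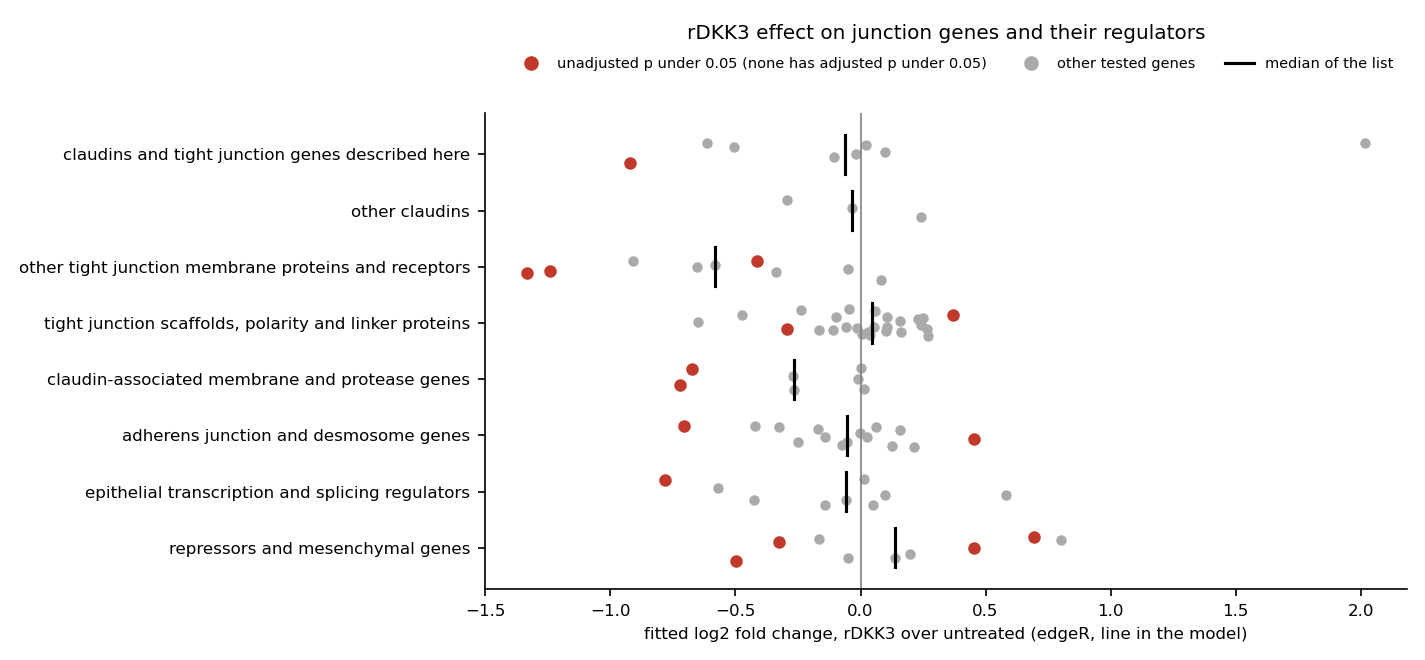
Fitted log2 fold change of rDKK3 against untreated (horizontal axis) for each tested gene of each list (vertical axis), with the list's median as a bar and genes with an unadjusted p under 0.05 in red. Medians run from -0.58 for the other membrane proteins and receptors to 0.14 for the repressors and mesenchymal genes, and none of the genes drawn has an adjusted p under 0.05.

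Over the 6 samples of line and condition, the log2 CPM of Cldn2 had a Pearson correlation of 0.91 with Ocln and 0.93 with Tjp1, and that of Ocln with Tjp1 was 0.93, while F11r had 0.46 with Cldn2, 0.59 with Ocln and 0.51 with Tjp1. Cldn3 had -0.18 with Cldn2, -0.55 with Ocln, -0.31 with Tjp1 and -0.61 with F11r. These 6 points share 3 lines. Among the 8 genes, Cldn23 had the widest range between lines of mean log2 CPM with a prior count of 2 (2.84), although it had only 0 to 39 counts per sample and the fitted difference between lines was wider for Cldn1 and Cldn7. Over the 6 samples the most similar of 11916 protein-coding genes (mean count of 20 or more) were Terf1, Tpx2, Rybp, Pola2 and Mki67, with correlations of 0.993 to 0.998. For Cldn2, looked at after its values were seen, they were Hexim1, Sucla2, Tbk1, Tmem254 and Rnf34. In both cases the genes were picked for the highest correlations over only 6 points, which makes high values likely, and no link was tested.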

How the data were processed

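RNA of 3 DDKC lines was measured untreated and with rDKK3 in 12 libraries. Per the labels and methods, the authors prepared directional libraries, used STAR 2.7.9a to align paired reads of 50 bases to GRCm39, counted them on GENCODE genes by strand, and deposited raw counts per gene without normalization. Their own test was DESeq2 1.38.0, whose formula is not given in the sources used here. The 92 rows without a gene name held 0% of the counts and were left out.

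The 2 libraries of a line and condition agreed within sampling noise when the lower and higher library numbers were given a term of their own (mean deviance per degree of freedom 0.765 over 12979 genes, against 6.39 without that term and 25.1 when treated and untreated libraries were taken as repeats). The labels do not call them separate cultures, so they were summed to 6 samples, and p-values measure only the spread between these samples. edgeR 4.0.16 (R 4.3.3) was run with TMM scaling, its filter on low counts by line (16277 genes kept), line and treatment in a quasi-likelihood model, and Benjamini-Hochberg adjustment at 0.05. The same fit tested the lines. CPM per library used the TMM factor of the summed sample, and log2 CPM a prior count of 2. The response of a line was not tested against that of another, since no residual degrees of freedom remain. Treated and untreated samples are paired by cell line, as the labels give it, and their deviations correlated by 0.82, 0.86 and 0.80 within lines and by -0.52 to -0.27 between lines. Gene coordinates and the starts used for promoter windows are those of the deposited table, promoter bases came from GRCm39, and exon lengths from GENCODE vM39, whose gene ends differ for some genes. The scripts were tested on simulated data. A further allele that all lines carry is not reported here.

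All 10 genes are named. From each other list the rule took genes called for rDKK3, the 3 with the largest fold change of the same sign in all lines and the 3 with the widest range between lines, of which a selection is printed. The genes and lists were chosen with earlier results of these data known. Alternatives were 12 separate libraries, each library series alone, no block, no treatment term, RLE factors, unscaled totals, no filter, DESeq2 1.42.0 and leaving out each line.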

Additional observations from a re-analysis of the deposited data

Results flagged for a closer look

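With TMM scaling, the libraries of different lines moved in opposite directions with rDKK3 for 5 genes, every rDKK3 library of a line lying on the same side of its untreated libraries. Of all tested genes, 36.5% had such opposite separations. The difference between lines was not tested. Cldn2 was higher in DDKC_9750 and lower in DDKC_9790 and DDKC_9804, and its most distant lines were 1.85 apart on the log2 scale. Cldn7 was higher in DDKC_9804 and lower in the other lines, with a gap of 2.85 that rests on 7 and 7 counts in DDKC_9804. In DDKC_9790 the libraries of Cldn2 and those of Cldn7 overlapped with unscaled totals. Ocln was higher in DDKC_9750 and DDKC_9790 and lower in DDKC_9804, with a gap of 1.21. F11r was lower in DDKC_9790 and higher in the other lines, with a gap of 0.40 (0.395). Tjp1 was higher in DDKC_9750 and lower in DDKC_9804, with a gap of 0.20 (0.199). In DDKC_9804 its lowest untreated library had 252.2 CPM and its highest rDKK3 library 249.2 CPM. With unscaled totals these libraries overlapped, so the opposite direction of Tjp1 depends on the scaling.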

How the results depend on the processing

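The number of genes called for rDKK3 was 1 as reported, 2627 with the 12 libraries as separate samples, 2983 with the library number series added, 6 in the lower-numbered libraries, 90 without the filter, 98 in DESeq2 and 0 to 3 when a line was left out (0 without DDKC_9750, 0 without DDKC_9790 and 3 without DDKC_9804). Of the 10 genes, 2 were called for rDKK3 in both 12-library fits, Cldn1 and Cldn3 (16.1% and 18.3% of all genes were called there), and 0 in the other settings. The call of Cldn1 is no support for a change, since the gene passed the filter only through its rDKK3 samples. Without the replicate block, that is without the line that pairs treated with untreated samples, 0 genes were called by edgeR and 106 had an unadjusted p under 0.05. Between lines, 12105 genes and 8 of the 8 tested here were called with 12 libraries (74.4% of all genes), and 5 of the 10 without the filter (22.7% of all genes), Cldn3 and Cldn23 being added. In DESeq2 and in the higher-numbered libraries 4 were called (38.9% and 35.2% of all genes), Tjp1 being added (adjusted p = 0.0112 in DESeq2 and 0.0474 in edgeR, against 0.0532 as reported). The fold change of rDKK3 changed sign in 11 of 88 cases, none of them called. F11r was -0.032 in the lower-numbered libraries, -0.014 without the filter and -0.040 to 0.17 when a line was left out (-0.038 without DDKC_9750, -0.040 without DDKC_9804). Ocln was -0.0037 in the higher-numbered libraries and -0.17 (without DDKC_9790) to 0.38 when a line was left out. Leaving out a line gave -0.62 to 0.21 for Cldn7 (0.21 without DDKC_9750, 0.13 without DDKC_9790), -0.066 to 0.027 for Tjp1 (0.0068 without DDKC_9790, 0.027 without DDKC_9804) and -0.87 to 0.050 for Cldn2 (0.050 without DDKC_9804). It gave 1.35 to 3.10 for Cldn1, -1.30 to -0.69 for Cldn3 and -1.18 to -0.30 for Cldn23, none of them called. The cause was not tested. Other scalings moved the ratio of a line by at most 0.06 on the log2 scale. With unscaled totals the libraries of the conditions overlapped for Cldn2 and Cldn7 in DDKC_9790 and for Tjp1 in DDKC_9804. Depth limits Cldn1, Cldn4, Cldn6, Cldn7 and Cldn23, whose counts per line and condition lie between 0 and 63.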
